A study of Mus musculus with 6 samples.

Results

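The glutamate receptor subunits and the postsynaptic scaffolds that hold them were described here at the level of alternative transcript structure in the mouse nucleus accumbens (NAc). The set held 35 genes, taken as every entry of the 6 deposited event lists filed under the GENCODE M21 identifier of a named gene. These were 4 AMPA, 5 kainate and 7 NMDA receptor subunits, 1 delta receptor, 7 metabotropic receptors, 4 MAGUK scaffolds (the Dlg genes), 3 Shank scaffolds and 4 Dlgap scaffolds. Of the 35 genes, 34 were listed in at least 1 library and 33 in all 6, among 16154 genes listed in the whole series. They carried 517 of the 133207 distinct events.

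NAc tissue came from adult male C57BL/6N mice that went through the conditioned place preference (CPP) procedure, in which an injection is paired with one of the compartments of a box. The saline group received saline injections (3 libraries) and the morphine group morphine injections (3 libraries), and tissue of both groups was taken shortly after the preference test. Each library yielded a list of places at which assembled transcripts of a gene differ. The lists hold no expression level. In the study a library stands for 1 mouse, whereas the series text gives more mice than samples, so every p-value below measures the spread between libraries, whether of single mice or pools.

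Glutamate opens AMPA, kainate and NMDA receptors, which are ion channels built from 4 subunits, while the metabotropic receptors act through G proteins. In the postsynaptic density the MAGUK proteins bind the receptor tails, the Dlgap proteins bind the MAGUK proteins, and the Shank proteins link Dlgap to Homer and the actin skeleton. Medium spiny neurons of the NAc receive their main excitatory drive through these receptors, and many of the genes make several proteins by alternative splicing.

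An event is a skipped exon, a retained intron, an exon with an alternative splice site at one end, or a first or last exon of a transcript. The lists divide these into 12 classes, and a place listed in more than 1 class counts once in each. A library listed 54750 to 62313 events, and its relative depth lay between 1 and 1.59, with saline 1 the shallowest and morphine 2 the deepest. The morphine libraries were on average 1.19 times as deep. Morphine 1 stood apart in intron retention over all genes, with 9604 events against 5473 to 7975 in the others. All 9 markers of striatal projection neurons were listed in all 6 libraries, as were all markers of cortical excitatory neurons, astrocytes, oligodendrocytes, microglia, ependyma and choroid plexus. Their levels were not measured. In bulk tissue, fewer cells of a type and less RNA per cell cannot be told apart.

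The exons that were skipped in every library come first, because they are the most repeatable readout of these genes. Skipping was listed for 56 distinct exons of 20 genes, of which 19 were listed in all 6 libraries, 2 in 5 libraries, 9 in 2 to 4 libraries and 26 in a single library. The 21 exons listed in at least 5 libraries lay in 13 genes, measured 21 to 115 nucleotides and were all annotated. Coding sequence filled 17 of them wholly, of which 16 had a length that is a multiple of 3, so that their loss keeps the reading frame. Counting exons that are coding in part, 18 of 20 had such a length. Counted over all 21, the share with such a length was 85.7%, against 65.6% of 2871 exons of all other genes listed at the same frequency. Exons of 27 nucleotides or fewer (microexons) were 5 of the 21, or 23.8%, against 7.35% of the other genes' exons. Of the 26 member exons seen in 1 library, 50% had a length that is a multiple of 3 and 0 were so short. Among 3814 exons of all other genes seen in 1 library, these shares were 40.7% and 3.22%, so both shares were lower there as well. These shares are descriptions of repeated listing and were not tested.

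**Figure D1:**
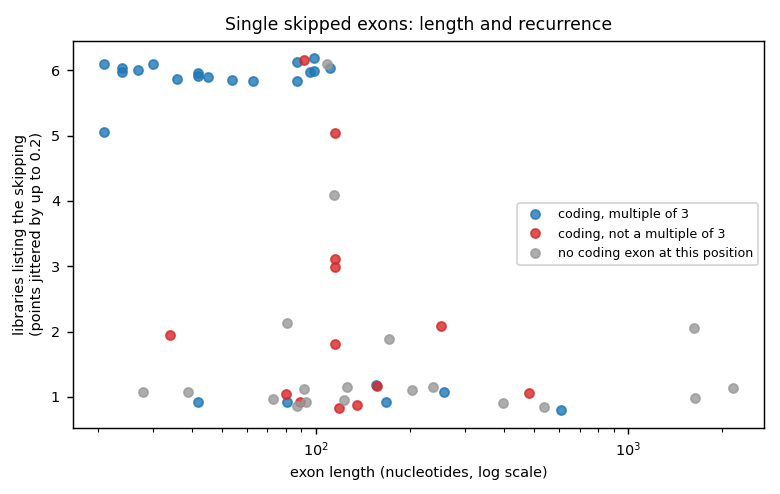
Length in nucleotides (log scale) of each of the 56 skipped exons of the 35 genes against the number of libraries that listed the skipping (points shifted slightly so that they do not overlap). The exons listed in all 6 libraries lie between 21 and 111 nucleotides and are mostly coding exons whose length is a multiple of 3, whereas exons of 1 library spread up to 2171 nucleotides.

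The receptor exons in this set include well-known alternative cassettes. All coordinates are GRCm38 and all sequences are those of GENCODE M21 transcripts, read 5′ to 3′ on the strand of the gene, in lower case. In Grin1, the obligatory NMDA receptor subunit, both were skipped in all 6 libraries: the N1 cassette of 63 nucleotides at chr2:25311343-25311405 (minus strand), which encodes 21 residues of the extracellular amino-terminal domain, and the C1 cassette of 111 nucleotides at chr2:25294438-25294548, which encodes 37 residues of the intracellular tail. Grik1, a kainate receptor subunit, had an exon of 45 nucleotides at chr16:87955289-87955333 (minus strand) and an exon of 87 nucleotides at chr16:87896809-87896895, which follows exon 15 of the 17-exon main transcript. Grm5, the group I metabotropic receptor of medium spiny neurons, had the exon of 96 nucleotides at chr7:88116193-88116288 (plus strand) that distinguishes its b form and adds 32 residues to the tail.
Grin1 N1: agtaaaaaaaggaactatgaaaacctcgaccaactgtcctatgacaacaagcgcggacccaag
Grin1 C1: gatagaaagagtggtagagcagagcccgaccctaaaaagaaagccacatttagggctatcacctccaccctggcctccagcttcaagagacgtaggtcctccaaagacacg
Grik1 45: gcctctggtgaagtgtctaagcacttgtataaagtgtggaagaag
Grik1 87: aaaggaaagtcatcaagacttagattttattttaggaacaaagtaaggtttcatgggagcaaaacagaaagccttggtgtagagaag
Grm5 96: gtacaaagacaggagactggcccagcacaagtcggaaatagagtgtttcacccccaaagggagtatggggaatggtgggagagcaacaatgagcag

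Another pair of receptor exons exchanges the carboxyl end of the protein, because a stop codon lies inside the exon. The kainate receptor gene Grik2 had an exon of 87 nucleotides at chr10:49104979-49105065 (minus strand) with an in-frame stop that starts at base 46 of the exon. Grm7, a presynaptic metabotropic receptor, had an exon of 92 nucleotides at chr6:111501510-111501601 (plus strand) with its stop at base 69. Both were skipped in all 6 libraries. The sequences are printed up to the stop codon, which is in capitals.
Grik2 87: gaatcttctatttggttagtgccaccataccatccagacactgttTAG
Grm7 92: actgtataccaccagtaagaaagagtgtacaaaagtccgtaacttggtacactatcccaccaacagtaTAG

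Scaffold genes supplied all 5 of the microexons. Shank1 and Shank3, which cap the scaffold, had skipped exons of 27 nucleotides (Shank1, chr7:44334033-44334059, plus strand), 24 nucleotides (Shank1, chr7:44344298-44344321) and 24 nucleotides (Shank3, chr15:89538015-89538038, plus strand) in all 6 libraries. In Shank2 an exon of 21 nucleotides at chr7:144408056-144408076 was listed in 5 libraries, that is in all but saline 3. Dlg1 (SAP97), a MAGUK, had an exon of 99 nucleotides at chr16:31771757-31771855 and an exon listed in 2 lengths, 36 and 21 nucleotides, that share the end at chr16:31854688. Dlg3 (SAP102) had exons of 54 nucleotides at chrX:100771307-100771360 and 42 nucleotides at chrX:100811502-100811543. Dlgap1 had an exon of 30 nucleotides at chr17:70718196-70718225 and a non-coding one of 109 nucleotides at chr17:70206237-70206345, and Dlgap2 had exons of 42 nucleotides at chr8:14823574-14823615 and 99 nucleotides at chr8:14179583-14179681. The Shank exons and the longer form of the Dlg1 exon are shown to make the size of such an insertion visible, with capitals marking the 15 bases (5 codons) that only the longer Dlg1 form holds.
Shank1 27: tctgatcgatgggattgactcagggag
Shank1 24: tctccccctggaagaagaaaattg
Shank3 24: cttccattcggagaagaaaagggg
Dlg1 36: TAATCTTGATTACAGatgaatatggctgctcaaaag

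Alternative splice sites gave a second repeatable group of changes in exon length. In all 6 libraries 9 pairs of long and short exons were listed, in Grm8, Dlg1, Dlg4, Dlgap1, Dlgap3 and Dlgap4. Dlg4 (PSD-95), the main MAGUK of excitatory synapses, had an exon of 165 nucleotides at chr11:70026923-70027087 (plus strand) whose short form of 66 nucleotides ends 99 nucleotides earlier. Dlgap3 (SAPAP3), which is abundant in the striatum, had an exon of 144 nucleotides at chr4:127235385-127235528 (plus strand) whose short form of 111 nucleotides starts 33 nucleotides later. Both extra segments are coding and multiples of 3. In Dlg1 the extra segments measured 45 and 15 nucleotides and in Dlgap1 84, and these were coding as well. The segments of Grm8 (55) and Dlgap4 (318, 309 and 71) were not wholly coding. Those of 318 and 309 nucleotides belong to the same long Dlgap4 exon of 398 nucleotides. The Dlg4 and Dlgap3 exons are printed with the extra segment in capitals. They were chosen after their values were seen, as the naming rule covered skipped exons only.
Dlg4 165: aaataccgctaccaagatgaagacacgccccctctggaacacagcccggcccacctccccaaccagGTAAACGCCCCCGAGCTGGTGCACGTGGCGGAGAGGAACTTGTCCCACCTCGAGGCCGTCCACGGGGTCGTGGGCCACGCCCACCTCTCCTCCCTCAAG
Dlgap3 144: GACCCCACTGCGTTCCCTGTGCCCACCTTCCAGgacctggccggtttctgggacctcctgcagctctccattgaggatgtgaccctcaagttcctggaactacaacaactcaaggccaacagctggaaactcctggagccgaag

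The flip and flop exons of the AMPA receptor genes are mutually exclusive, and each encodes a part of the ligand-binding domain that influences desensitization. Each exon measured 115 nucleotides in all 4 genes, and flip and flop were told apart by their translated sequence. The Gria2 flop exon lay at chr3:80691320-80691434 and its flip exon at chr3:80690404-80690518 (minus strand), and the Gria4 flop exon at chr9:4432773-4432887 and its flip exon at chr9:4427030-4427144 (minus strand). Within a pair the exons differed at 36 bases in Gria1, 36 in Gria2, 32 in Gria3 and 31 in Gria4, which left an identity of 68.7% to 73.0%. Capitals mark those bases. The Gria2 and Gria4 pairs are printed because the later intron results border on them.
Gria2 flop: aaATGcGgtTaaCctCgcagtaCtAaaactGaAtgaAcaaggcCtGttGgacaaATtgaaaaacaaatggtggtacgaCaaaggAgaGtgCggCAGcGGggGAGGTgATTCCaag
Gria2 flip: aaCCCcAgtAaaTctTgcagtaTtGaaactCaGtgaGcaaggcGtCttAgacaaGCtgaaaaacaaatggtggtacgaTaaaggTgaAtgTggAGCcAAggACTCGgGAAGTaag
Gria4 flop: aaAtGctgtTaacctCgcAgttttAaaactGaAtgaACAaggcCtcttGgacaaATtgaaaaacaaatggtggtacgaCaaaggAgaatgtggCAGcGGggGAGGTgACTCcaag
Gria4 flip: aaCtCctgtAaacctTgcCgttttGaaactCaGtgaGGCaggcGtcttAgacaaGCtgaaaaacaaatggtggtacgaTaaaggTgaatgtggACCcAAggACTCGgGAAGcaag

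Listing of these exons as skipped was uneven between the genes. In Gria1 and Gria3 neither exon was listed as skipped in any library. The Gria4 flip exon was listed in 5 libraries, that is in all but morphine 1, and the Gria4 flop exon in saline 1, morphine 1 and morphine 2. The Gria2 flop exon was listed in saline 1, saline 2 and morphine 2, and the Gria2 flip exon in saline 1 and saline 2. Neither Gria2 exon separated the groups. Absence from a list says that the pair was not written as a skipping event there, not that one of the forms was missing from the tissue.

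The main comparison asked whether the number of listed events differed between morphine and saline. Over the 35 genes the saline libraries listed 217, 204 and 200 events and the morphine libraries 246, 216 and 219. The groups overlapped, and the means of 207 ± 8.89 and 227 ± 16.5 (SD, n = 3 each) differed by 20 with a two-sided exact permutation p of 0.2. With 3 libraries against 3, the smallest p that this test can give is 0.1, so no single value could reach a lower one. Without morphine 1 the difference was 10.5. As a share of all events of the library, the member events were 0.372%, 0.373% and 0.350% in saline and 0.395%, 0.357% and 0.384% in morphine.

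The direction of this difference rested on events seen only once, whose test was not among those set beforehand. Events listed in a single library numbered 33, 27 and 34 in saline and 79, 55 and 50 in morphine, so that all morphine libraries were above all saline libraries (31.3 ± 3.79 against 61.3 ± 15.5, exact permutation p = 0.1, the smallest possible). They made up 15.2%, 13.2% and 17.0% of the member events of the saline libraries and 32.1%, 25.5% and 22.8% of those of the morphine libraries. Over all genes the shares were 19.6%, 15.9% and 17.6% in saline and 23.3%, 20.6% and 18.0% in morphine, where the groups overlapped. Among events found in at least 2 libraries, the member genes had 184, 177 and 166 in saline and 167, 161 and 169 in morphine. These groups overlapped, and the difference of the means was -10 (p = 0.3, exact permutation). Relative depth was 1, 1.07 and 1.37 in saline and 1.20, 1.59 and 1.29 in morphine, and its part in this difference was not tested.

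By type of event, transcript ends alone did not overlap between groups, and this separation depended on the counting. First and last exons numbered 117, 117 and 119 in saline and 126, 128 and 122 in morphine, a difference of 7.67 (exact permutation p = 0.1, adjusted p = 0.4 over 4 types by Benjamini-Hochberg). Without opposite-strand events the difference was 5.33 (exact permutation p = 0.3), with only events of at least 2 libraries it was -3 (p = 0.5, exact permutation), and as a share of the library's events p was 0.7 (exact permutation). Exon skipping (36, 33 and 29 against 38, 36 and 34), intron retention (31, 23 and 19 against 39, 19 and 25) and alternative exon ends (33, 31 and 33 against 43, 33 and 38) overlapped, with adjusted p of 0.4, 0.7 and 0.4 in the same exact permutation test. Without morphine 1, the difference in retention turned from 3.33 to -2.33. Across the 6 libraries transcript ends and depth had Pearson r = 0.731 and Spearman rho = 0.754 (permutation p = 0.111 and 0.106, adjusted over 5 relations 0.556 and 0.361). This was the largest r of the 5. With depth, r was -0.0773 for all member events, -0.122 for exon skipping, -0.552 for intron retention and 0.00118 for alternative exon ends. Without saline 1 and morphine 2, the libraries farthest from the median depth, r for transcript ends was 0.187. The other 4 libraries had relative depths from 1.07 to 1.37, and the relation was not tested in them.

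By role in the synapse, the summed events of the AMPA and of the kainate receptor genes were fewer in every morphine library than in any saline library, and those of the Shank genes were more, but in each group 1 gene carried the difference. AMPA genes listed 31, 32 and 37 events in saline and 30, 26 and 28 in morphine, a difference of -5.33, or -3.5 without saline 3. Kainate genes listed 37, 25 and 26 in saline and 18, 20 and 20 in morphine, a difference of -10, or -6.17 without saline 1. Shank genes listed 32, 32 and 23 in saline and 56, 37 and 39 in morphine, which is 15 more on average and 9 more without morphine 1. Each of these had an exact permutation p of 0.1 and an adjusted p of 0.267 over 8 gene groups. When only events of at least 2 libraries were counted, the AMPA difference was -8 and the kainate difference -6 (both exact permutation p = 0.1), whereas the Shank difference was 3 (p = 0.4, exact permutation).

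None of these separations held without the most different gene of the group, which was left out after seeing the data. Without Gria2 the AMPA genes listed 21, 15 and 18 events in saline and 24, 19 and 23 in morphine, so the direction turned (difference 4, exact permutation p = 0.2). Without Grik1 the kainate genes listed 14, 12 and 15 against 12, 15 and 15 (difference 0.333, exact permutation p = 1). Without Shank2 the Shank genes listed 26, 22 and 14 against 24, 16 and 33, with overlap (difference 3.67, exact permutation p = 0.6).

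The other groups overlapped between saline and morphine. NMDA genes listed 28, 20 and 27 events against 51, 24 and 30, with 1 library, morphine 1, far above the rest. The mean difference of 10 was 2 without that library. MAGUK genes listed 26, 33 and 29 against 29, 39 and 37, Dlgap genes 41, 36 and 33 against 39, 42 and 38, and metabotropic genes 20, 24 and 23 against 20, 26 and 24. The delta receptor gene Grid1 listed 2, 2 and 2 against 3, 2 and 3. Adjusted p in the exact permutation test lay between 0.457 and 0.8 for these groups.

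**Figure D2:**
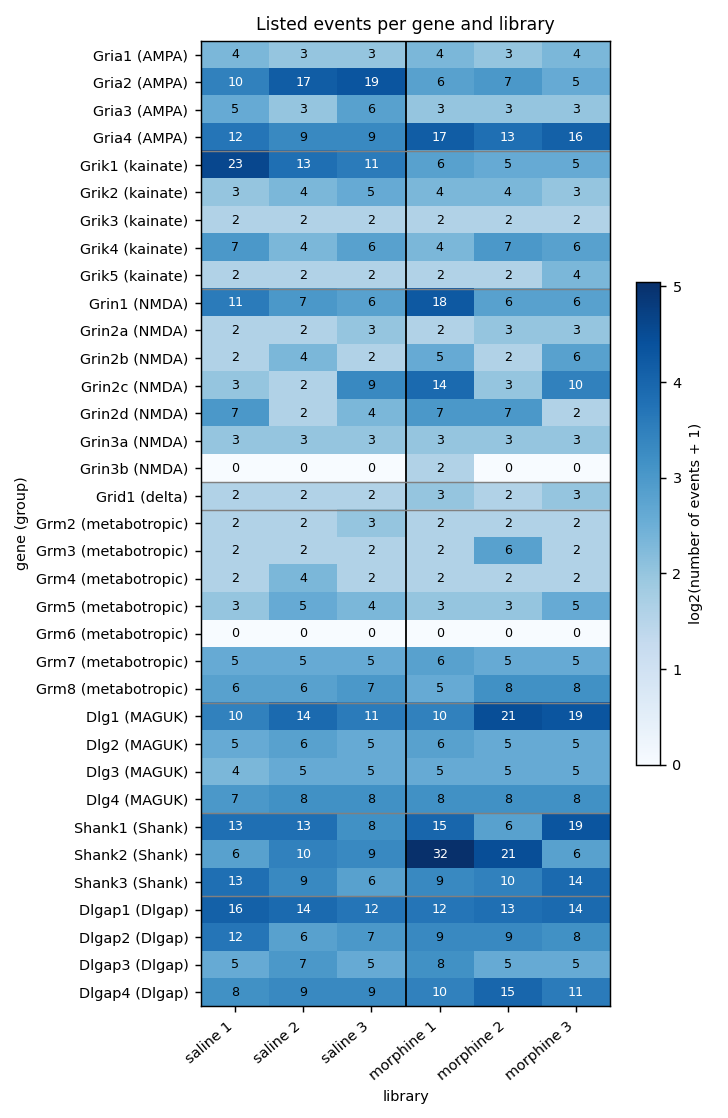
Number of listed events of each of the 35 genes (rows, grouped by role) in each library (columns, saline on the left, morphine on the right), printed in the cells and shaded on a log2(number + 1) scale. Gria2 and Grik1 are darker in the saline columns, and Shank2 is darkest in morphine 1 with 32 events.

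At the level of genes, 4 of the 35 had event numbers that did not overlap between groups, against 2.77% of all listed genes. Such a separation by itself fixes the exact permutation p of 3 against 3 libraries at 0.1. Printed below for each of these genes, that p restates the separation and is not adjusted over the 35 genes. Among genes with a mean of at least 5 events, a comparison added after seeing the data, the same 4 stood among 18 members, against 6.89% of 3150 genes (2.41% higher in saline and 4.48% higher in morphine). The median member had 5.17 events per library and the median listed gene 2.67. The AMPA subunit Gria2 and the kainate subunit Grik1 were higher in saline, a direction that 0.966% of listed genes showed. The AMPA subunit Gria4 and the scaffold Dlgap4 were higher in morphine, a direction that 1.81% showed. The mean was higher in morphine for 22 members, higher in saline for 8 and equal for 5, among them Grm6, which was never listed. The same count over all listed genes was not made, so it cannot be read as particular to the members. Over all genes the morphine libraries listed 62313, 60582 and 56969 events and the saline libraries 58281, 54750 and 57212.

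Gria2 encodes the subunit that makes AMPA receptors impermeable to calcium. Its lists held 10, 17 and 19 events in saline and 6, 7 and 5 in morphine, a difference in means of -9.33 (exact permutation p = 0.1). Every saline library was above every morphine library. Of the types, retention events alone did not overlap between groups, with 4, 5 and 7 in saline and 1, 1 and 1 in morphine. An intron listed in more than 1 retention class counts here once per class. Alternative exon ends were 0, 4 and 6 against 0, 2 and 0, and skipping was 2, 3 and 0 against 0, 1 and 0. Transcript ends, 4, 5 and 6 against 5, 3 and 4, overlapped. With single-library events left out the difference was -8.33, again with an exact permutation p of 0.1.

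Grik1 encodes a kainate receptor subunit. It had 23, 13 and 11 events in saline and 6, 5 and 5 in morphine, a difference of -10.3 (exact permutation p = 0.1). Saline 1 had the most, and without it the difference was -6.67. The groups did not overlap, as the lowest saline library was above the highest morphine library. The 2 cassettes printed above were skipped in all 6 libraries and made up all exon skipping of the morphine libraries, which listed 2, 2 and 2 such events against 8, 3 and 6 in saline. Retention was 4, 3 and 0 in saline and 0 in every morphine library, and alternative exon ends were 4, 2 and 0 against 0. Transcript ends were 7, 5 and 5 against 4, 3 and 3. No Grik1 event was listed in all saline and 0 morphine libraries: saline 1 and saline 3 shared the skipping of a coding exon of 251 nucleotides at chr16:87914154-87914404, and saline 1 and saline 2 shared the retention of introns of 4422 and 5888 nucleotides. With single-library events left out the difference was -5.33.

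Gria4, another AMPA subunit, differed in the opposite direction to Gria2. It had 12, 9 and 9 events in saline and 17, 13 and 16 in morphine, a difference of 5.33 (exact permutation p = 0.1), without overlap. Events in at least 2 libraries differed by 1 (exact permutation p = 0.6). Of its 31 distinct events 13 were seen in a single library. The remaining AMPA genes varied less, with 3 to 4 events in Gria1 and 3 to 6 in Gria3.

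Dlgap4 (SAPAP4) had 8, 9 and 9 events in saline and 10, 15 and 11 in morphine, a difference of 3.33 (exact permutation p = 0.1), or 1.83 without morphine 2. Its alternative exon ends were level, with 5, 5 and 6 against 5, 5 and 5. First exons made most of the difference, at 2, 3 and 2 against 3, 6 and 4. Of the Dlgap4 events 3 lay on the strand opposite to the gene, all in morphine libraries. Without opposite-strand events the difference was 1.67 (exact permutation p = 0.5) and the groups overlapped. Of the 517 member events, 21 lay on the opposite strand.

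**Figure D3:**
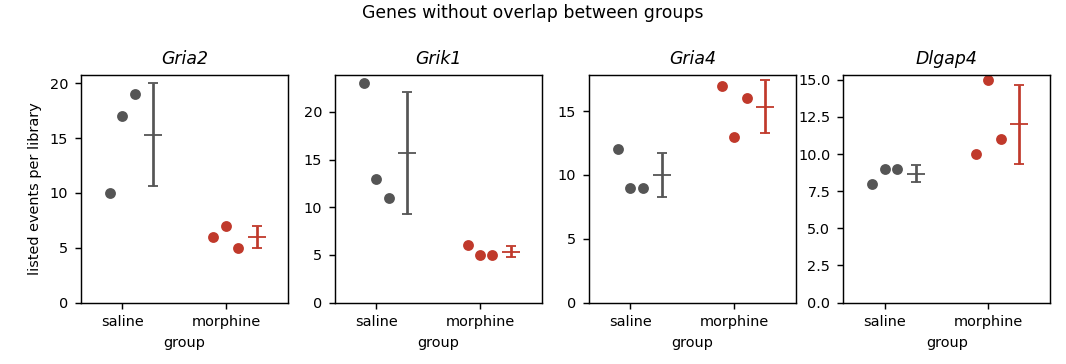
Listed events per library (points, 3 per group) of the 4 genes whose event numbers did not overlap between groups, with group mean and SD beside the points; each vertical axis starts at 0. Gria2 and Grik1 lie higher in saline, and Gria4 and Dlgap4 lie higher in morphine with smaller gaps.

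Of the 517 member events, 2 appeared in every library of 1 group and in 0 libraries of the other, a smaller share than the 0.66% of all 133207 events. Both were retained introns of Gria2, among the 97 retention events of the members, and both were listed in saline. This direction was shown by 0.278% of all events and 0.196% of all retention events. In the morphine direction there were 0 such member events, against 0.382% of all events. The first was the intron of 4231 nucleotides between exons 11 and 12 of the 16-exon transcript, at chr3:80702657-80706887 (minus strand). The second was the intron of 850 nucleotides between exon 13 and the flop exon, which is exon 14, at chr3:80691435-80692284. As background, exons 11 and 13 of this gene hold its editing sites (Q/R and R/G), and the introns behind them pair with the exons to form the double-stranded RNA that editing enzymes use. Editing was not measured by these lists.

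The first of these introns was not wholly missing from the morphine lists. A longer event at chr3:80702657-80707698, which spans introns 10 and 11 together, was listed in all 3 saline libraries and in morphine 3. Counted wherever any retention event spans an intron, a definition added after seeing the data, the separation held for the intron of 850 nucleotides alone, which no event spanned in a morphine library. Intron 10 by itself, 440 nucleotides at chr3:80707259-80707698, was listed in all saline libraries, in morphine 1 and in morphine 2. Of the retention events found in all 3 saline libraries, 5.92% over all genes were in 0 morphine libraries. Over all genes the libraries listed 7975, 5490 and 5473 retention events in saline and 9604, 7359 and 6483 in morphine, with overlap. The relation of the Gria2 values to these totals was not tested.

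**Figure D4:**
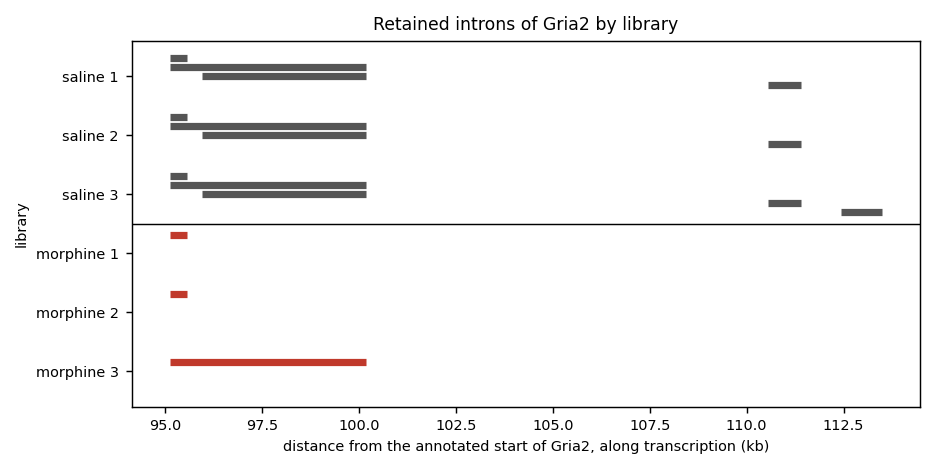
Retained introns of Gria2 in each library, drawn by their distance in kilobases from the annotated start of the gene along transcription; each bar is an interval listed as retained, and the same interval listed in more than 1 retention class is drawn once. Introns 10 and 11 are on the left, and the 850-nucleotide intron further right has a bar in 3 saline libraries and 0 morphine libraries.

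Retention was the least repeatable type in the other members. The 35 genes had 97 distinct retention events in 16 genes, of which 64 were in a single library, 3 in 5 libraries and 0 in all 6. The 3 most frequent were intron 10 of Gria2, an intron of 23117 nucleotides at chr9:4432888-4456004 upstream of the Gria4 flop exon (not listed in morphine 1), and a longer Gria4 event at chr9:4424455-4456004 that spans the flip and flop region (not listed in morphine 3). In Gria4, then, the introns around the same exons were listed in both groups. Of 64 single introns 52 matched annotated introns, with a median length of 962.5 nucleotides. An intron of 746 nucleotides in Shank1 (chr7:44326287-44327032) and one of 8050 nucleotides in Dlgap2 (chr8:14831649-14839698) were listed in 4 libraries each.

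The recurrence of events was set beside that of all other genes. Of the member events 19.0% were listed in all 6 libraries and 53.8% in only 1, against 20.5% and 50.6% of the 132690 events of other genes. By type, 27.6% of member skipping events were in all 6 libraries against 19.4%, and 16.8% of member alternative exon ends against 9.05%. For retention the shares were 0% of 97 and 1.70% of 26429, and for transcript ends 24.7% and 29.8%. Dlg4 and Dlg3 were the steadiest of the genes with at least 5 distinct events, with 7 of 8 and 4 of 5 events in all 6 libraries. Gria2 had 0 of 31 and Shank2 2 of 51. Grin2a (0 of 9), Grin2b (0 of 13), Grin2d (0 of 17) and Grm3 (0 of 8) likewise had 0 such events.

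**Figure D5:**
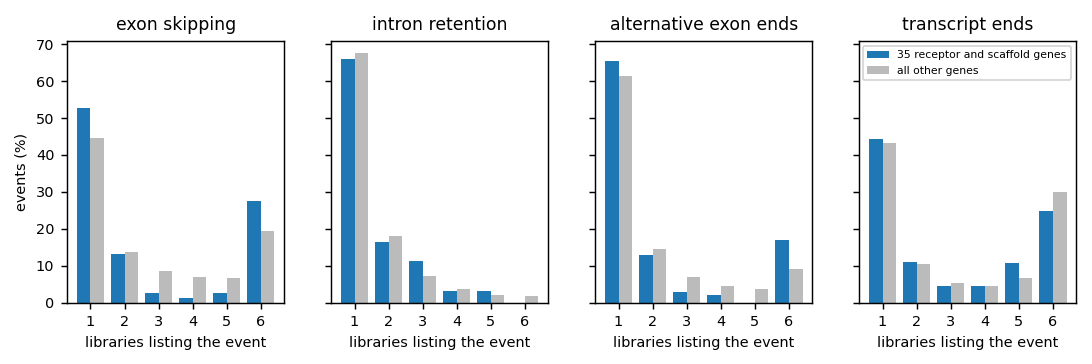
Share of events in percent (vertical axis) against the number of libraries that listed the event, for the 35 genes and for all other genes, by type of event. Member exon skipping is 27.6% at 6 libraries against 19.4%, and member retention is 0% there.

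Among the NMDA receptor genes, Grin1 listed 11, 7 and 6 events in saline and 18, 6 and 6 in morphine. Its skipping events were 3 in every library, as the C1 cassette was listed in more than 1 class. Its retention (1, 0 and 0 against 5, 0 and 0) and alternative ends (4, 0 and 0 against 6, 0 and 0) came almost wholly from saline 1 and morphine 1. Grin2c ranged from 2 to 14 and was singled out after its values were seen: saline 3, morphine 1 and morphine 3 were high, at 9, 14 and 10. Grin2b, a subunit of developing and forebrain receptors, ranged from 2 to 6, Grin2d from 2 to 7 and Grin2a from 2 to 3. Grin3a had 3 events in every library, while Grin3b, a glycine-binding subunit best known from motor neurons, was listed only in morphine 1, with 2 events.

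Metabotropic receptor genes mostly had few events. Grm6, the receptor of retinal bipolar cells, was listed in no library. Grm5 had 3, 5 and 4 events in saline and 3, 3 and 5 in morphine, and Grm7 had 5, 5 and 5 against 6, 5 and 5. Grm2 ranged from 2 to 3, Grm4 from 2 to 4, Grm3 from 2 to 6 and Grm8 from 5 to 8. Of the 8 distinct Grm3 events 4 lay on the strand opposite to the gene, as did 3 of the 11 Grm5 events. In the kainate group, Grik2 had 3, 4 and 5 events against 4, 4 and 3, Grik3 had 2 in every library, Grik4 ranged from 4 to 7 and Grik5 from 2 to 4.

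Of the scaffold genes, Shank2 varied most. It had 6, 10 and 9 events in saline and 32, 21 and 6 in morphine, so morphine 1 and morphine 2 were high and morphine 3 was level with the lowest saline library. Retention (0, 1 and 2 against 12, 5 and 0) and first exons (3, 4 and 4 against 7, 8 and 4) were also high in morphine 1 and morphine 2, and 38 of its 51 distinct events were seen in a single library. Shank1 had 13, 13 and 8 events against 15, 6 and 19, and Shank3 had 13, 9 and 6 against 9, 10 and 14, with overlap in both. Dlg1 had 10, 14 and 11 events against 10, 21 and 19, where retention was 0, 3 and 0 against 0, 6 and 9. Dlg3 had 4, 5 and 5 against 5, 5 and 5. Dlgap1 had 16, 14 and 12 against 12, 13 and 14, and Dlgap2 had 12, 6 and 7 against 9, 9 and 8. Of the rest, Dlg2 ranged from 5 to 6, Dlg4 from 7 to 8 and Dlgap3 from 5 to 8.

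Alternative first exons were a steady feature of most scaffold genes and of some receptor genes. The 35 genes had 152 distinct first exons, of which 40 were listed in all 6 libraries, 70 in only 1, and 80 matched an annotated first exon. All 40 of the steady first exons were annotated. Dlgap1 had 5 of them over 552598 nucleotides, 2 of which lie close together at chr17:70522262 and chr17:70522268. Dlg4 had 4 over 11503 nucleotides. The receptor genes Gria1, Gria3 and Grm8 had 2 each, whereas the scaffold genes Shank2 and Dlg3 had 1 each. Dlg2 (PSD-93) had 2 that lie 1144176 nucleotides apart, Dlgap2 2 that lie 286047 apart, Dlgap4 2 that lie 107229 apart, Dlg1 2 that lie 90695 apart and Shank3 2 that lie 33535 apart. Of 91 last exons 20 were in all 6 libraries, and all 20 were annotated. Only Grin1 and Gria4 had 2 steady last exons: those of Grin1 start 356 nucleotides apart, and those of Gria4 start 58536 nucleotides apart.

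Other genes of the postsynaptic density were taken from a fixed list of 30, which held Homer proteins, AMPA receptor auxiliary subunits, signalling enzymes and adhesion proteins. In all 6 libraries 29 of them were listed. Their event numbers did not overlap for 1 gene, Shisa7, an auxiliary subunit, which had 3, 3 and 3 events in saline and 7, 4 and 8 in morphine, and for 0 genes in the other direction. Over all listed genes the share without overlap was 2.77%, so 1 of 30 is near the background. Of their 269 events, 2 were listed in all saline and 0 morphine libraries, and 0 were so in morphine, again near the 0.66% of all events. These were the skipping of an exon of Iqsec2, an exchange factor of the postsynaptic density, at chrX:152222283-152222332, and a transcript start of Neto1, a kainate receptor auxiliary subunit.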

How the data were processed

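NAc RNA of 3 saline and 3 morphine libraries was sequenced by the authors from strand-specific libraries, mapped with HISAT2 (v2.0.4) and assembled with StringTie (v1.3.1). The genome build and the program behind the event lists are not given in the sources used here. The positions match GRCm38 and the layout is that of ASprofile. The series text and the study differ on whether mice were pooled. The deposited column named fpkm is a score, as it holds whole numbers from -25 to 0, and served as no level. Of the deposited series table, the authors' read counts and FPKM values gave the relative depth, over values of at least 10 counts. That table's own fold changes and p-values were not used.

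Entries of a library that share event class, gene, strand and position were counted as 1 event, with presence and absence patterns merged. The 12 event classes were then grouped into 4 types. A position listed in more than 1 class of a type was thus counted once in each class. First and last exons were matched by their splice-side end. Group means were set against each other with the exact two-sided permutation test of scipy 1.17.1, with Benjamini-Hochberg adjustment over types or gene groups. The script was tested on simulated lists. Genes were given values in every library when they had a skipped exon in at least 5 libraries, an event of 1 group only, event numbers without overlap, or no event in a library. The members, the lists and this rule were chosen with earlier results of these data known.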

Additional observations from a re-analysis of the deposited data

How the results depend on the processing

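Of 130 alternative values for the differences in event numbers in total, by type and by gene group, 119 kept their direction, 1 was 0 and 10 reversed. With only events of at least 2 libraries, the difference (morphine minus saline) was -10 in total, -2.67 for exon skipping, -4.67 for intron retention, -3 for transcript ends, -3.33 for metabotropic genes and 0 for the delta receptor gene. The metabotropic difference was -1 without opposite-strand events and -0.000404 percentage points as a share of the library's events, and ranged from -0.333 to 2.67 with each library left out. Retention ranged from -2.33 to 7.67 in the same way. Left out after seeing the data, Gria2 turned the AMPA difference to 4 and Grik1 the kainate difference to 0.333. Genes without overlap numbered 3 with all coordinates (background 3.03%), 3 without opposite-strand events (2.79%) and 4 as a share of the library's events (6.01%). With a library left out they ranged from 4 to 8, against backgrounds of 5.95% to 6.78%. The 8 came when morphine 2 was left out, where the background was 6.09%. Gria2 and Grik1 stayed without overlap under every alternative run, Gria4 lost this with all coordinates (p = 0.2, exact permutation) or without single-library events, and Dlgap4 lost it as a share of events (p = 0.2, exact permutation), without opposite-strand events or without single-library events.

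Events of 1 group only numbered 6 with all coordinates and the event pattern as identity (background 0.519%). With a library left out they ranged from 6 to 11 (background up to 2.19%). The total of member events differs in these settings and is not given, so no member share stands beside these counts. Among the 517 member events, 39 were in at least 2 of 3 libraries of a group and 0 of the other (background 5.74%). Such events numbered 1 with retention counted in any class (0.596%) and 0 among exon skipping events. Skipping events of 1 group only made up 0.111% of all events of any type. The share of events in all libraries was 13.4% with all coordinates and ranged from 20.2% to 24.0% with a library left out. Depth measured by listed genes gave a ratio of 1.02 in place of 1.19. No paired analysis was possible because the labels give no replicate number shared by the groups. The lists cannot tell an event that was missed from one that is absent, and they give no level for any gene.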
